A study of Mus musculus with 10 samples.

Results

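Lysosomes and autophagosomes were followed through 39 genes in the lens epithelium of mice that overexpress TGF-β1 and develop anterior subcapsular cataract. The genes were taken by symbol from a count table of 50763 genes, and all 39 were found in it. They cover the lysosomal membrane (4 genes), cathepsins (7), glycosidases and proteins of lysosomal lipid handling (8), transcription factors of the MiT family (3), a cargo receptor with the ATG8 family (5), autophagy initiation and membrane supply (5), the conjugation machinery (5), and autophagosome transport and tethering (2). A total of 38 passed the expression minimum and were tested, and the exception was Mitf.

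The lysosome is an acidic organelle in which hydrolases break down proteins, glycans and lipids. Autophagy delivers cytoplasm and organelles to it inside a double membrane that forms on demand, a step driven by the ULK kinases, the Beclin 1 lipid kinase complex and the conjugation of ATG8 proteins to lipid. The factors TFEB, TFE3 and MITF bind a short DNA element shared by many lysosomal promoters. In the lens, the epithelium keeps its organelles whereas maturing fiber cells lose theirs, and loss of FYCO1 or EPG5 function is known to cause cataract.

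RNA was sequenced from freshly isolated lens epithelia of mice at 3 weeks of age on the FVB/N background, in 3 libraries from wild-type (WT) mice without a transgene, 3 from OVE853 and 4 from OVE918. Both lines carry a transgene for a secreted, constitutively active human TGF-β1 driven by the lens-specific αA-crystallin promoter, and no other treatment was given. Each library came from a pool, of up to 9 mice in WT and OVE853 and of up to 7 mice in OVE918, so that plaque and surrounding epithelium were not separated and n counts pools. In such bulk RNA, a larger share of a cell type and more RNA per cell cannot be told apart.

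Total counts on genes ranged from 24073311 to 31908525 per library. Levels are given in CPM, the counts of a gene scaled to the TMM-adjusted library total. The Tgfb1 row, that of the mouse gene, lay at 50.6 to 61.7 CPM in WT, at 339 to 361 CPM in OVE853 and at 715 to 881 CPM in OVE918. By the study's own account this row also takes up reads of the human transgene, so it is a check of the labels and no measure of the mouse gene. The lens crystallin Cryaa took 8.229% to 13.023% of all counts. WT replicate 3 stood apart from the other WT libraries in summed retinal markers, at 902 CPM against 148 and 167 CPM. The retinal sum lay at 59.5 to 124 CPM in OVE853 and at 66.3 to 213 CPM in OVE918. Summed corneal markers were 237, 938 and 1620 CPM in WT replicates 1, 2 and 3. They lay at 62.7 to 92.9 CPM in OVE853 and at 26.6 to 81.8 CPM in OVE918. Nearly all of the corneal sum was the single gene Aldh3a1, at 236, 937 and 1610 CPM in WT and at 26.3 to 92.4 CPM in the lines. Between the groups, the summed markers of pigmented epithelium lay at 113 to 207 CPM in WT and at 40.5 to 83.9 CPM in the transgenic lines. Much of that distance lay in Oca2, at 42.9, 60.2 and 73.7 CPM in WT and 0.483 to 3.82 CPM in the lines. The 3 tested markers of this list (Tyrp1, Dct and Pmel) overlapped between WT and each line, and 0 passed. The summed markers of non-pigmented ciliary epithelium lay at 180 to 278 CPM in WT, at 49.7 to 66.5 CPM in OVE853 and at 22.5 to 34.6 CPM in OVE918, and those of Müller glia at 3520 to 5300, 2060 to 2400 and 2450 to 2930 CPM. Most of the Müller glia sum was the single gene Dkk3, at 3050 to 3730, 1830 to 2150 and 2320 to 2790 CPM. In WT, each marker of this list was highest in replicate 3, such as Rlbp1 at 210 CPM against 29.9 and 35 CPM. The sums of the lens fiber markers were 6660 to 20500 CPM in WT, 13000 to 38600 CPM in OVE853 and 17600 to 47200 CPM in OVE918. The part of these other cells in the results below was not tested.

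Levels were compared between genes only as FPKM, which is CPM divided by the exon length in kilobases. Cathepsin L (Ctsl), a cysteine protease, and cathepsin D (Ctsd), an aspartic protease, had the highest mean levels of the set over the 10 libraries, at 422 and 394 FPKM. Prosaposin (Psap), the precursor of the saposins that assist sphingolipid breakdown, followed at 354 FPKM and the membrane protein Lamp1 at 118 FPKM. The ranges of Ctsl (302 to 604 FPKM), Ctsd (286 to 566 FPKM) and Psap (332 to 381 FPKM) overlapped over the libraries, whereas Lamp1 (106 to 146 FPKM) lay below them. The lowest tested members were Epg5 (3.82 FPKM), Atg7 (3.76 FPKM) and Gla (3.45 FPKM), whose ranges also overlapped. Of the 39 genes, 31 lay above the median of all genes tested (8.08 FPKM), and the median of the 38 tested was 20.7 FPKM. The 5 conjugation genes lay between 3.76 and 15 FPKM.

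**Figure D1:**
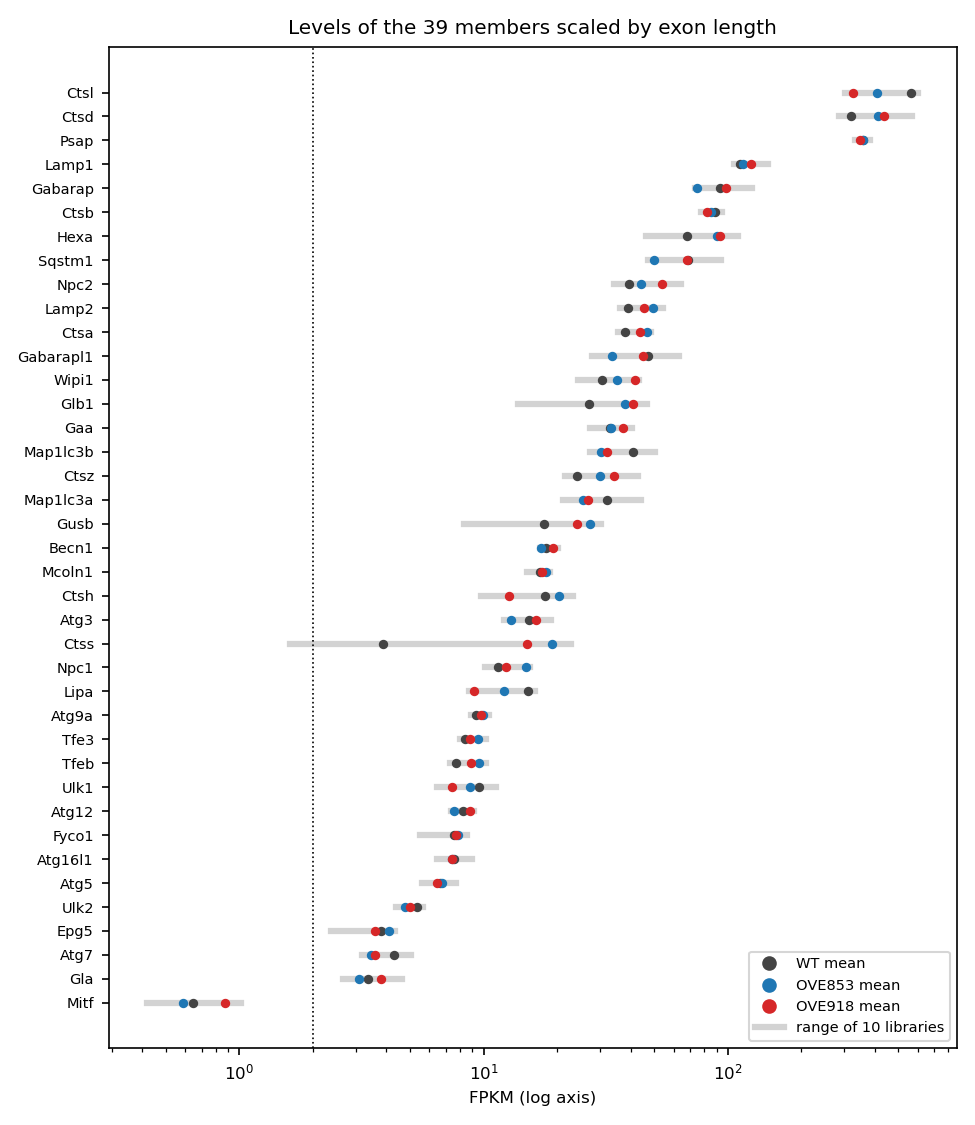
Levels of the 39 genes in FPKM on a log axis, ordered by their mean over 10 libraries. Points are group means (WT n = 3, OVE853 n = 3, OVE918 n = 4), grey bars span all libraries and the dotted line marks the 2 FPKM of the expression minimum. Ctsl and Ctsd head the order at 422 and 394 FPKM, Mitf lies below the minimum at 0.718 FPKM, and Ctss has a WT mean far below the means of both lines.

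The transgenic lines were then compared with WT to ask which of these genes differed with TGF-β1 overexpression. In OVE853, 5 of 38 members had an FDR of at most 0.05 (edgeR quasi-likelihood test, adjusted by Benjamini-Hochberg over all 11094 genes tested). The share, 13.2%, stood beside 15.8% of all genes. Ctss, Ctsa and Tfeb were elevated (3 of 38, beside 8.1% of all genes) and Ctsl and Lipa were reduced (2 of 38, beside 7.68%). In OVE918, 7 of 38 members passed (18.4%, beside 19% of all genes). Ctss, Ctsz, Npc2 and Wipi1 were elevated (4 of 38, beside 8% of all genes) and Ctsl, Lipa and Ulk1 were reduced (3 of 38, beside 11%). Of the 38 members, 1 in each line, Ctss in both cases, also reached an absolute log2 fold change of 1 and was thus a differentially expressed gene (DEG), beside 4.43% of all genes in OVE853 and 5.59% in OVE918. With libraries scaled by total counts and no TMM factors, the split was 5 elevated and 0 reduced in OVE853 and 3 elevated and 4 reduced in OVE918, beside 11.4% and 16.8% of all genes called.

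The median log2 fold change of the members was 0.03 in OVE853 and 0.08 in OVE918, beside -0.01 and 0.01 for all genes tested. By level, 16 members had no overlap between the OVE853 and the WT libraries (9 higher, 7 lower), beside 45.4% of all genes tested, and 10 had none between OVE918 and WT (6 higher, 4 lower), beside 27.2%. The share of members that passed was near that of all genes in both lines, so the counts set these genes no further apart than genes in general. What follows describes single genes. Both contrasts use the same WT libraries.

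**Figure D2:**
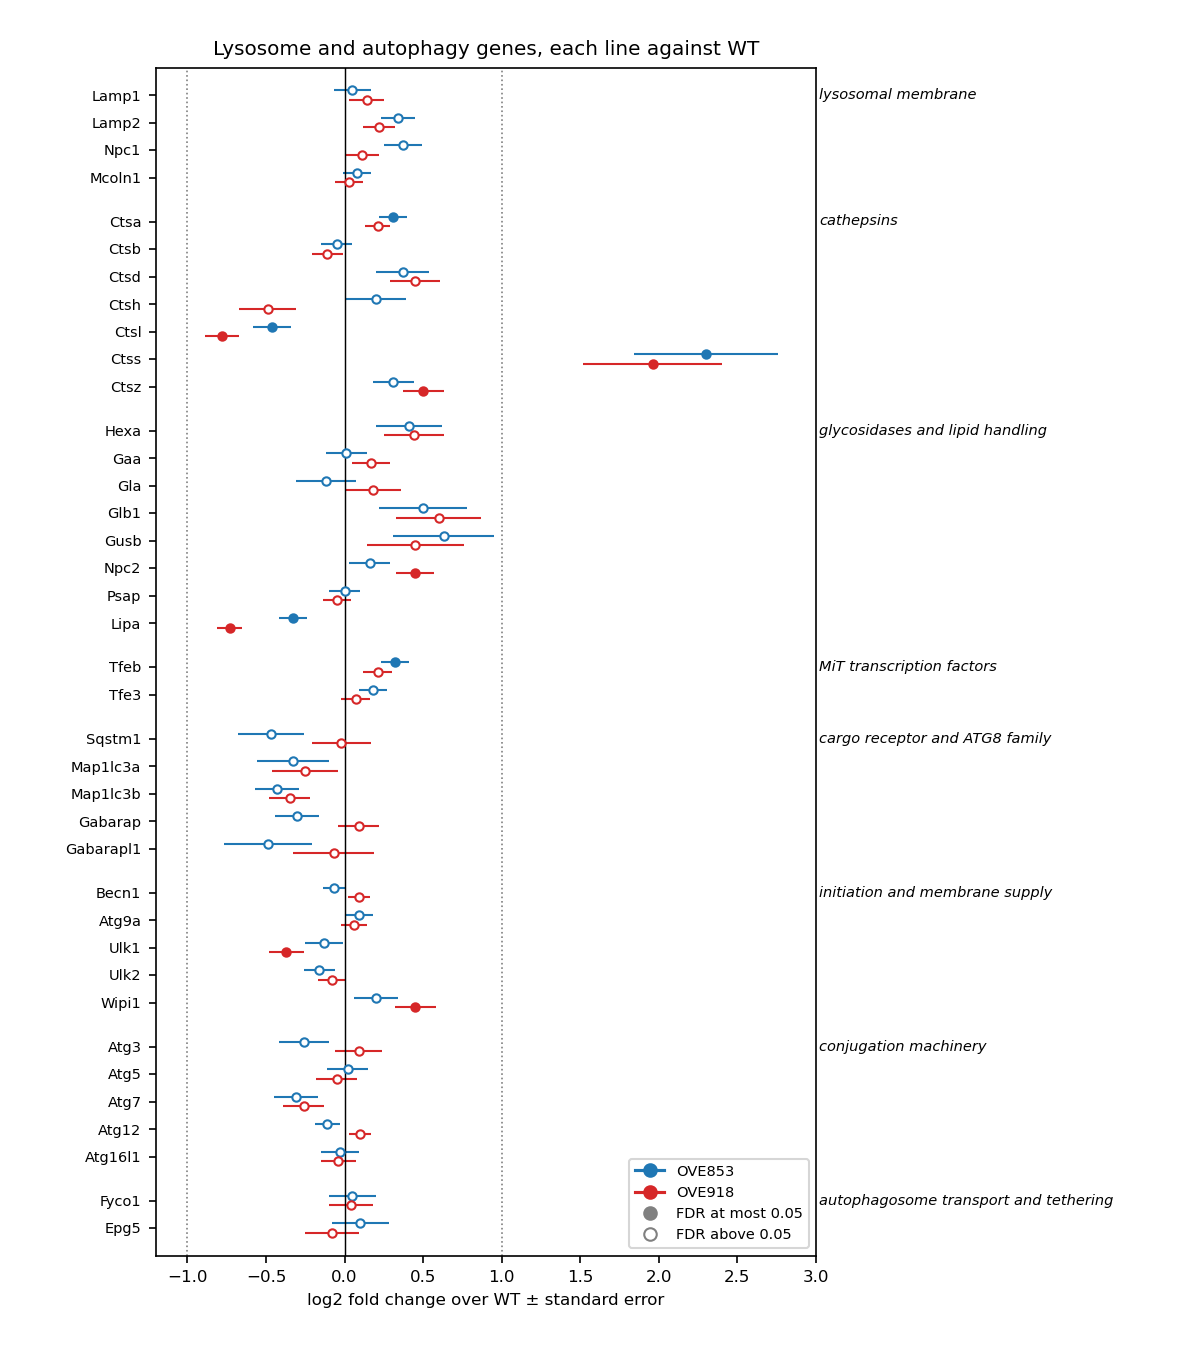
Log2 fold change of 38 genes over WT with its standard error, by role, for OVE853 (blue, n = 3) and OVE918 (red, n = 4) against WT (n = 3). Filled points have an FDR of at most 0.05 and dotted lines mark a log2 fold change of 1 in either direction, past which only Ctss lies (2.30 and 1.96).

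Cathepsin S (Ctss, chromosome 3), a cysteine protease best known from antigen-presenting cells, had the largest change of the set in both lines. Its levels were 3.76, 2.19 and 9.85 CPM in WT, 31.1, 18.6 and 28.5 CPM in OVE853 and 22.9, 14.7, 20.6 and 24.4 CPM in OVE918. Each transgenic library lay above each WT library, and the highest WT value was that of replicate 3. The log2 fold change was 2.30 (SE 0.46, FDR 0.0114) in OVE853, which is 4.91-fold, and 1.96 (SE 0.44, FDR 0.0138) in OVE918, which is 3.88-fold. Without WT replicate 3 the values were 3.14 (FDR 0.000155) and 2.80 (FDR 0.00016), and without WT replicate 2 they were 1.92 and 1.59. The lines did not differ past the threshold (log2 fold change -0.34, SE 0.40, FDR 0.624).

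Macrophages express Ctss strongly, and 15 macrophage markers were summed beside it. The sum was 45, 26.9 and 64.6 CPM in WT, 92.1, 58.2 and 81.5 CPM in OVE853 and 87.3, 39.7, 64.1 and 107 CPM in OVE918. The group means were 45.5 ± 18.8 (SD, n = 3), 77.3 ± 17.4 (SD, n = 3) and 74.5 ± 29.0 (SD, n = 4) CPM, and the sum overlapped between WT and both lines. By marker, 6 of 15 were higher in each OVE853 library than in each WT library and 1 (Mrc1) was lower. Of all genes tested, 45.4% lay apart from WT in this way in OVE853, counting both directions. For OVE918, 1 marker was higher and 1 (Mrc1) lower, beside 27.2% of all genes tested. Of the 15 markers 4 were expressed enough to be tested (C1qa, C1qb, C1qc and Tyrobp), with log2 fold changes of 0.98 to 1.36 in OVE853 (FDR 0.0586 to 0.12) and 0.98 to 1.35 in OVE918 (FDR 0.0446 to 0.122). The complement gene C1qa passed, in OVE918 (1.35, SE 0.41, FDR 0.0446). No macrophage marker was at 0. The part of macrophages in the Ctss difference was not tested.

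**Figure D3:**
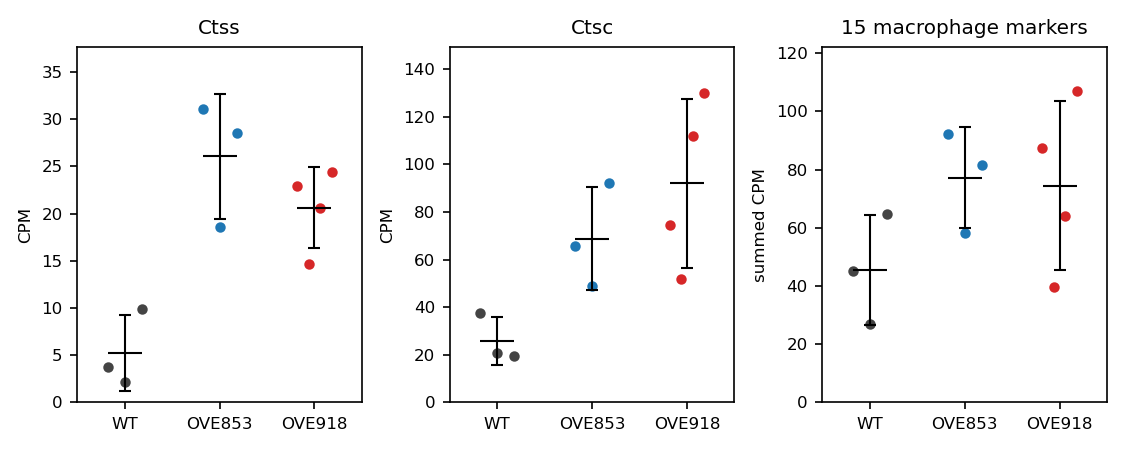
Ctss, Ctsc and the sum of 15 macrophage markers in each library, in CPM. Points are libraries (WT n = 3, OVE853 n = 3, OVE918 n = 4), with the mean and SD in black. WT and transgenic libraries do not overlap for Ctss and Ctsc, and they overlap for the marker sum (26.9 to 64.6 CPM in WT, 39.7 to 107 CPM in the lines).

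Ctsl (chromosome 13), which carries out bulk proteolysis in the lysosome, moved the other way. Its levels were 3570, 3480 and 2920 CPM in WT, 2270, 2610 and 2360 CPM in OVE853 and 1870, 1990, 1780 and 2090 CPM in OVE918. No WT library reached down to a transgenic one, and OVE918 lay entirely below OVE853. Ctsl was reduced in OVE853 (log2 fold change -0.46, SE 0.12, FDR 0.0297) and in OVE918 (-0.78, SE 0.11, FDR 0.00079), to 0.726 and 0.581 of the WT level. The OVE918 call held in all 20 alternative settings, whereas the OVE853 call was lost without WT replicate 2 (FDR 0.0894) and without OVE853 replicate 1, 2 or 3 (FDR 0.131, 0.0578 and 0.119), with total-count scaling (-0.38, FDR 0.0603) and with no filter (FDR 0.0835). Between the lines the log2 fold change was -0.32 (SE 0.11, FDR 0.145).

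Lipa (chromosome 19), the acid lipase that frees cholesterol and fatty acids from lipoprotein lipids, was reduced in a graded order. Its levels were 89.0, 76.3 and 85.4 CPM in WT, 63.5, 68.8 and 67.1 CPM in OVE853 and 48.7, 52.6, 52.3 and 47.8 CPM in OVE918. None of the 3 groups overlapped another. The log2 fold change was -0.33 (SE 0.09, FDR 0.0279) in OVE853 and -0.73 (SE 0.08, FDR 0.000129) in OVE918, which left 0.795 and 0.602 of the WT level. Lipa was also the 1 member of 38 that passed between the lines (OVE918 against OVE853, log2 fold change -0.40, SE 0.08, FDR 0.0457), beside 1.32% of all genes tested in that contrast (0.379% higher, 0.937% lower in OVE918). The OVE918 call over WT held in all 20 alternatives. The OVE853 call was lost without WT replicate 1 or 3 (FDR 0.0539 and 0.0604) or OVE853 replicate 1, 2 or 3 (FDR 0.107, 0.0662 and 0.0833), with total-count scaling (-0.24, FDR 0.204) and with no filter (FDR 0.0829), and the call between the lines was lost in 11 of 20 alternatives. These included the omission of WT replicate 2 (FDR 0.0546), of OVE853 replicate 1, 2 or 3 (0.147, 0.144 and 0.202) and of OVE918 replicate 1, 3 or 4 (0.118, 0.0794 and 0.0741).

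**Figure D4:**
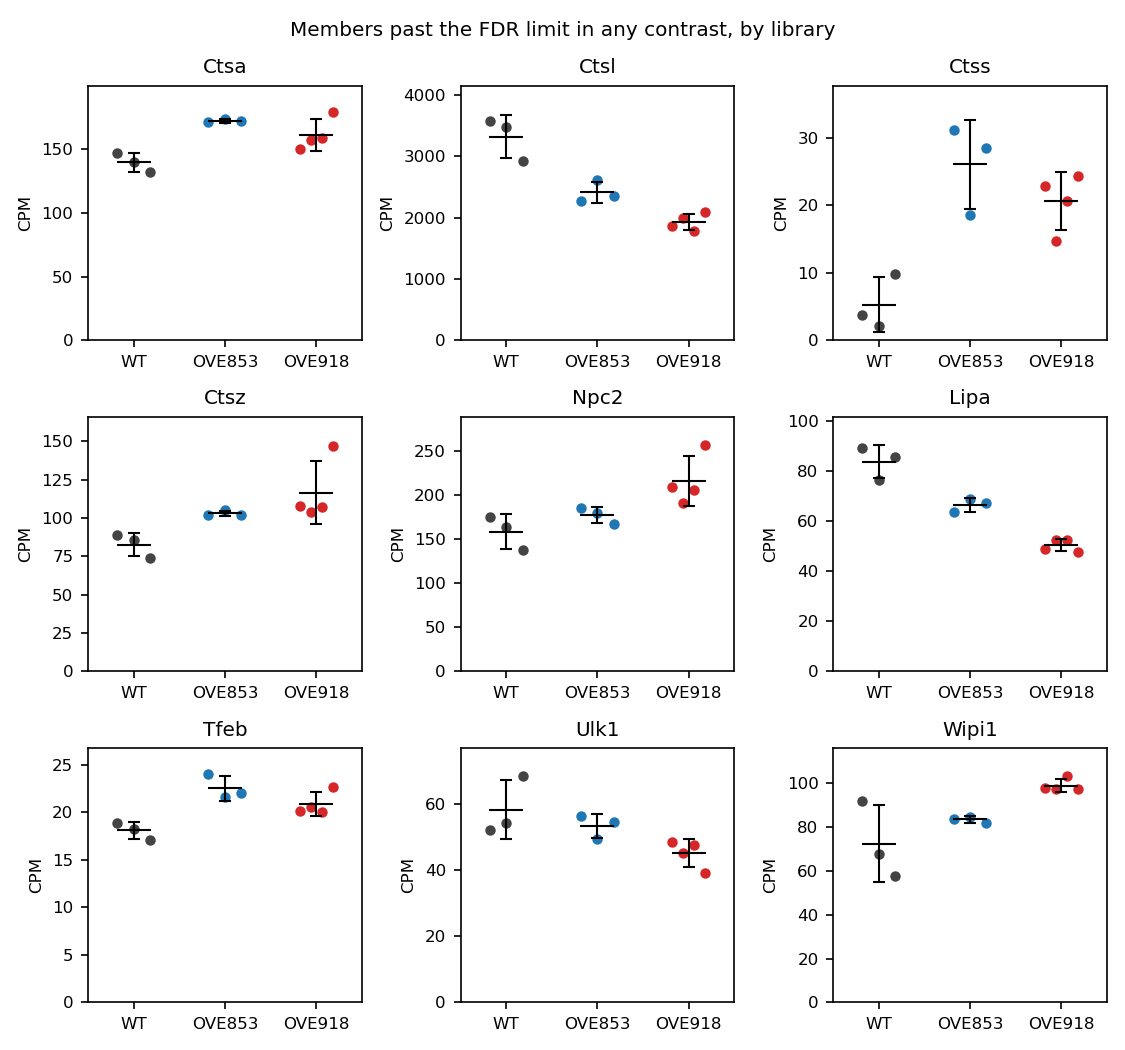
Levels of the 9 genes that passed an FDR of 0.05 in any contrast, in CPM from 0. Points are libraries (WT n = 3, OVE853 n = 3, OVE918 n = 4), with the mean and SD in black. Ctsl and Lipa step down from WT to OVE853 to OVE918, Ctss lies at 2.19 to 9.85 CPM in WT and at 14.7 to 31.1 CPM in the lines, and the other genes differ by smaller amounts.

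Of the other cathepsins, Ctsa and Ctsz were elevated in 1 line each. With Ctss and Ctsl, 3 of 7 cathepsins passed in each line (42.9%, beside 15.8% and 19% of all genes). Ctsa (chromosome 2), a carboxypeptidase that also protects β-galactosidase and neuraminidase, lay at 147, 140 and 132 CPM in WT, at 171, 174 and 172 CPM in OVE853 and at 150, 157, 159 and 179 CPM in OVE918. All transgenic libraries were above WT, OVE918 by a margin of a few CPM. The log2 fold change was 0.31 (SE 0.09, FDR 0.0428) in OVE853 and 0.21 (SE 0.08, FDR 0.11) in OVE918, and the lines did not differ past the threshold (-0.10, SE 0.08, FDR 0.487). The OVE853 call was lost in 10 of 20 alternatives. These were the omission of WT replicate 2 or 3 (FDR 0.106 and 0.118), OVE853 replicate 1, 2 or 3 (0.132, 0.114 and 0.14) or OVE918 replicate 1 or 3 (0.0563 and 0.0657), upper-quartile factors, a minimum on counts only (filterByExpr) and no filter. DESeq2 called Ctsa in OVE918 as well (0.21, FDR 0.0483).

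Ctsz (chromosome 2), also a carboxypeptidase, lay at 88.7, 85.3 and 74.0 CPM in WT, at 102, 105 and 102 CPM in OVE853 and at 108, 104, 107 and 147 CPM in OVE918. WT overlapped neither line, and OVE918 replicate 4 stood above the other 3. Ctsz was elevated in OVE918 (log2 fold change 0.50, SE 0.13, FDR 0.0189). This call was lost without WT replicate 2 or 3 (FDR 0.0516 and 0.0631) and with only these 2 groups fitted. In OVE853 Ctsz had a log2 fold change of 0.31 (SE 0.13, FDR 0.126). It passed there with the replicate block (FDR 0.0425), with voom (FDR 0.0166) and without OVE918 replicate 4 (FDR 0.0199). Without OVE918 replicate 4 its log2 fold change in OVE918 was 0.37 (FDR 0.00943).

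The other 3 cathepsins passed in no contrast with edgeR's test as described above. Ctsd had log2 fold changes of 0.37 (SE 0.17, FDR 0.139) and 0.45 (SE 0.16, FDR 0.0676), with 1400 CPM in OVE918 replicate 4 against 902 to 1020 CPM in the other 3. The aminopeptidase Ctsh differed in sign, at 0.20 (SE 0.19, FDR 0.481) in OVE853 and -0.49 (SE 0.18, FDR 0.0791) in OVE918, and the direct contrast of the lines gave -0.69 (SE 0.18, FDR 0.078). Ctsb lay within 0.11 of 0 on the log2 scale in both lines. With DESeq2 the calls were different, as Ctsd passed in OVE918 (0.46, FDR 0.0233) and Ctsh between the lines (-0.67, FDR 0.0132). Ctsh also passed between the lines when these 2 groups were fitted alone (FDR 0.0364) or WT replicate 1 was left out (FDR 0.0414), and in OVE918 with the replicate block (FDR 0.0426). Ctsd passed in OVE853 without OVE918 replicate 4 (FDR 0.0397), and in OVE918 without WT replicate 1 (0.57, FDR 0.0342) or OVE918 replicate 2 (FDR 0.0423). Total-count scaling called Ctsd in OVE853 (FDR 0.0472) and Ctsh in OVE918 and between the lines (FDR 0.0261 and 0.0191), and voom called Ctsd in both lines (FDR 0.00447 and 0.00792) and Ctsh between them (FDR 0.0092).

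Among the glycosidases and lipid-handling proteins, Npc2 was the other gene to pass beside Lipa. In this group of 8, 12.5% passed in OVE853 and 25% in OVE918, beside 15.8% and 19% of all genes. Npc2 (chromosome 12) takes up cholesterol in the lysosomal lumen and hands it to the membrane protein Npc1. Its levels were 175, 163 and 137 CPM in WT, 185, 179 and 167 CPM in OVE853 and 209, 191, 206 and 256 CPM in OVE918. All OVE918 libraries were above those of WT, whereas OVE853 overlapped WT. The log2 fold change was 0.45 (SE 0.12, FDR 0.0255) in OVE918 and 0.16 (SE 0.13, FDR 0.387) in OVE853. The OVE918 call was lost without WT replicate 2 or 3 (FDR 0.0661 and 0.0821) and with only these 2 groups fitted. Between the lines Npc2 passed with voom (0.23, FDR 0.0444).

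Hexa, Glb1 and Gusb, which remove sugars from gangliosides and glycosaminoglycans, had log2 fold changes of 0.41 to 0.63 in OVE853 and 0.44 to 0.60 in OVE918, and none passed (FDR 0.138 to 0.347). WT replicate 3 was low for each of them. Glb1 read 88.9, 74.6 and 33.6 CPM in WT, against 80.4 to 114 CPM in the 7 transgenic libraries, and Gusb read 91.4, 78.1 and 31.3 CPM against 68.5 to 114 CPM. Hexa read 178, 138 and 92.4 CPM against 155 to 221 CPM. Without WT replicate 3 the log2 fold changes of Glb1 were 0.18 and 0.28, those of Gusb 0.28 and 0.10 and those of Hexa 0.19 and 0.23. Without WT replicate 1 Hexa passed in both lines (0.65, FDR 0.0344, and 0.68, FDR 0.0227) and Glb1 passed in OVE918 (0.88, FDR 0.0491), and with voom Hexa passed in OVE853 (FDR 0.0385). Gaa, which digests glycogen, Gla, an α-galactosidase, and Psap lay within 0.18 of 0 in both lines.

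On the lysosomal membrane, none of 4 genes passed in either line at an FDR of 0.05, and 2 had an unadjusted p under 0.05 in OVE853, beside 34.1% of all genes tested. The cholesterol exporter Npc1 lay at 64.7, 62.7 and 56.8 CPM in WT, at 77.6, 78.3 and 82.4 CPM in OVE853 and at 66.1, 75.5, 68.7 and 53.7 CPM in OVE918. OVE853 was above all WT libraries and OVE918 overlapped them. Its log2 fold change was 0.37 (SE 0.12, FDR 0.0537) in OVE853 and 0.11 (SE 0.11, FDR 0.55) in OVE918. DESeq2 and the fit of these 2 groups alone put Npc1 in OVE853 past the threshold (FDR 0.0266 and 0.0306). Upper-quartile factors, the replicate block and voom did so as well (FDR 0.0428, 0.0305 and 0.00422). So did the omission of OVE918 replicate 2 or 4 (FDR 0.0411 and 0.0115). Between the lines Npc1 passed with voom (-0.23, FDR 0.0363). Lamp2, which serves chaperone-mediated autophagy and fusion, stood at 0.34 (SE 0.11, FDR 0.0574) in OVE853 and 0.22 (SE 0.10, FDR 0.166) in OVE918. Lamp2 passed in OVE853 with DESeq2 (FDR 0.024), with total-count scaling (0.43, FDR 0.0439) and without OVE918 replicate 4 (FDR 0.045). Without WT replicate 1 it passed in both lines (0.45, FDR 0.0165, and 0.32, FDR 0.043), and with voom likewise (FDR 0.00607 and 0.0359). Lamp1 and the calcium channel Mcoln1 lay within 0.14 of 0.

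The MiT factors bind the element of lysosomal promoters named above. Tfeb (chromosome 17) lay at 18.9, 18.3 and 17.1 CPM in WT, at 24.0, 21.6 and 22.0 CPM in OVE853 and at 20.1, 20.6, 20 and 22.7 CPM in OVE918. Neither line overlapped WT. Tfeb was elevated in OVE853 (log2 fold change 0.32, SE 0.09, FDR 0.0441), and in OVE918 the value was 0.21 (SE 0.09, FDR 0.131). The OVE853 call was lost in 13 of 20 alternatives, among them the omission of WT replicate 2 or 3 (FDR 0.0961 and 0.121), of OVE853 replicate 1, 2 or 3 (0.172, 0.083 and 0.12) or of OVE918 replicate 1, 2 or 3 (0.0649, 0.0536 and 0.0639). Tfe3 had log2 fold changes of 0.18 (SE 0.09) and 0.07 (SE 0.09). Mitf, which directs pigment cell genes as well, lay at 3.58, 2.08 and 3.93 CPM in WT, at 2.66, 3.48 and 2.59 CPM in OVE853 and at 5.05, 3.69, 4.72 and 3.88 CPM in OVE918, on 54 to 127 counts per library. With a minimum on counts only, Mitf entered the test and did not pass in either line (FDR 0.769 and 0.222).

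The element bound by these factors was looked for in the promoters of the members, because lysosomal genes are known targets of them. RefSeq promoter windows of 300 bases, most of each upstream of an annotated start, were matched for 31 of the 39 genes. Those without a window were Npc1, Ctsb, Ctsh, Map1lc3a, Becn1, Atg12, Atg16l1 and Epg5. The palindrome CACGTG (E-box) was in at least 1 window of 11 of these 31 genes (35.5%), beside 8.09% of 27025 genes, and the longer TCACGTGA, the inner part of the CLEAR element, which contains the E-box, in 5 (16.1%, beside 1.12%). TCATGTG (M-box) was in 3 (9.7%, beside 4.31%). Both strands were searched. Genes with an E-box were Lamp1, Mcoln1, Ctsa, Ctsd, Ctsl, Gaa, Gla, Glb1, Atg3, Atg5 and Atg7, and those with the longer form were Mcoln1, Ctsa, Ctsd, Gla and Atg3. Ctss held an M-box but no E-box, and Lipa held none of the 3. Of the 11 E-box genes, Ctsa (elevated) and Ctsl (reduced) passed in OVE853, beside 15.8% of all genes tested. Only Ctsl (reduced) passed in OVE918, beside 19%.

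The first 280 bases of 6 windows are printed to set Ctss, which had the largest change, and Lipa, the 1 member that passed between the lines, beside lysosomal genes rich in the element, 1 of which passed (Ctsa). RefSeq gives the windows on GRCm38.p6, and the GRCm39 positions are those of the single exact match of each window. Each run ends 30 bases after the start, and capitals mark the E-box, CLEAR core and M-box letters:
Ctsa, chr2:164675443-164675722, plus strand: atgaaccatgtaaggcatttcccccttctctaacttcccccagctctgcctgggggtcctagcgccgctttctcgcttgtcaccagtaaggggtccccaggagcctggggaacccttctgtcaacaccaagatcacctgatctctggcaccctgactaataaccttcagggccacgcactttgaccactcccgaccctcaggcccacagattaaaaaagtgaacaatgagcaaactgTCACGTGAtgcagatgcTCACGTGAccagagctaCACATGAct
Ctsd, chr7:141941535-141941814, minus strand: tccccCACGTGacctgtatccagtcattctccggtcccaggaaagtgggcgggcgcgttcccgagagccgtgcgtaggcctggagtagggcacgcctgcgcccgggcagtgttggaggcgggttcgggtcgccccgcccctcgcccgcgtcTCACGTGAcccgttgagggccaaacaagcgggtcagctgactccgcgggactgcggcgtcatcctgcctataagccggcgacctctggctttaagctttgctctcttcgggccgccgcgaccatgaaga
Mcoln1, chr8:3550269-3550548, plus strand: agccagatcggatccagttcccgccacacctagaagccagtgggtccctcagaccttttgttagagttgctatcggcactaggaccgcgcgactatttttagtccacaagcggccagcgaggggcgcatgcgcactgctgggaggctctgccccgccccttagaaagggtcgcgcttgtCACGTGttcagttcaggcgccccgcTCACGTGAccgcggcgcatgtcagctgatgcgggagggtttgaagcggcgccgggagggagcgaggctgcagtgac
Lamp1, chr8:13208911-13209190, plus strand: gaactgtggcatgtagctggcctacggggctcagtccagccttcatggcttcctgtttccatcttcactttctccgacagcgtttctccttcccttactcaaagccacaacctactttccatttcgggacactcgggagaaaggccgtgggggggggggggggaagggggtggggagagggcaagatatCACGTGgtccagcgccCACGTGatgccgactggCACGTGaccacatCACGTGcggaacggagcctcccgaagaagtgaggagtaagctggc
Ctss, chr3:95433847-95434126, plus strand: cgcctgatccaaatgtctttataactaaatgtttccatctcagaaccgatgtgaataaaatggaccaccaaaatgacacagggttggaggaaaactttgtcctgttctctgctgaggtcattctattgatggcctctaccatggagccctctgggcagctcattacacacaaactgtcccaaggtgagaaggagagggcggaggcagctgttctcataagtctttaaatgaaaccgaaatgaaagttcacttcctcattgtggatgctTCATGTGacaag
Lipa, chr19:34504845-34505124, minus strand: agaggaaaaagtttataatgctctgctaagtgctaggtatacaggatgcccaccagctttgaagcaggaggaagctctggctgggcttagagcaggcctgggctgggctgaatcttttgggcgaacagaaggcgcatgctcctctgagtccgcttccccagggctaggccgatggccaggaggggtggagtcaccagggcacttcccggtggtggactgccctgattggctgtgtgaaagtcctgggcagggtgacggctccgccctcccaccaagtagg

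The 2 CLEAR core matches of Ctsa lie across the start of the printed window, at 13 bases before it and 4 after. Another RefSeq window of Ctsa, at chr2:164674542-164674821, held none of the 3 motifs and is not printed. The annotated gene Ctsa begins at 164674778, within that other window, and the printed window lies wholly inside the gene. The printed window of Lipa also lies inside its annotated gene (chr19:34469712-34522163, minus strand), away from the gene's upstream end. The 4 E-boxes of Lamp1 lie at 61, 45, 28 and 15 bases before its start. Ctsa, Ctsd and Mcoln1 all hold TCACGTGA and had log2 fold changes of 0.31, 0.37 and 0.08 in OVE853 and of 0.21, 0.45 and 0.03 in OVE918, of which only Ctsa in OVE853 passed. For Lamp1 the values were 0.05 and 0.14.

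The cargo receptor and the ATG8 family lay below WT in OVE853, without passing. Sqstm1 (p62), which links ubiquitinated cargo to ATG8 proteins, Map1lc3a, Map1lc3b, Gabarap and Gabarapl1 had log2 fold changes of -0.49 to -0.30 in OVE853 (median -0.43, 0 of 5 past the threshold, 2 with an unadjusted p under 0.05 beside 34.1% of all genes, FDR 0.0644 to 0.338) and of -0.35 to 0.09 in OVE918 (median -0.07). Between the lines the 5 values were all positive, from 0.08 to 0.45, and none passed in edgeR. With voom, Sqstm1 (0.40, FDR 0.022) and Gabarap (0.29, FDR 0.0255) passed there. Sqstm1 lay at 164, 204 and 306 CPM in WT, at 169, 154 and 166 CPM in OVE853 and at 216, 183, 221 and 269 CPM in OVE918. WT replicate 3 was the highest WT library for each of the 5 genes. Without it, the OVE853 values of Sqstm1, Map1lc3a, Map1lc3b, Gabarap and Gabarapl1 were -0.18, -0.02, -0.26, -0.24 and -0.22, so the distance narrowed for all of them. Without WT replicate 1, Sqstm1 (-0.65, FDR 0.0327) and Map1lc3b (-0.52, FDR 0.0337) passed in OVE853 and Map1lc3b passed in OVE918 (-0.44, FDR 0.0492). Map1lc3b was also past the threshold in OVE853 by DESeq2 (log2 fold change -0.43, FDR 0.0319), by voom (FDR 0.0182) and without OVE918 replicate 4 (FDR 0.0469), and in OVE918 with total-count scaling (FDR 0.0361). Gabarap passed in OVE853 without OVE918 replicate 4 (-0.30, FDR 0.0359), with these 2 groups fitted alone (FDR 0.0451) and with voom (FDR 0.0252).

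Of 5 genes of initiation and membrane supply, Wipi1 and Ulk1 passed, both in OVE918 (40%, beside 19% of all genes). In OVE853, 0 of 5 passed, beside 15.8% of all genes. Wipi1 (chromosome 11), which reads a phosphoinositide on the growing membrane, lay at 92.0, 67.7 and 57.5 CPM in WT, at 83.8, 84.6 and 81.8 CPM in OVE853 and at 97.7, 97.3, 103 and 97.3 CPM in OVE918. OVE918 was above all WT libraries, replicate 1 of WT coming near it, and OVE853 lay inside the WT range. The log2 fold change was 0.45 (SE 0.13, FDR 0.0378) in OVE918, against 0.20 (SE 0.14, FDR 0.323) in OVE853. Without WT replicate 1 it was 0.66 (FDR 0.000845), without WT replicate 2 it was 0.40 (FDR 0.126) and without WT replicate 3 it was 0.31 (FDR 0.104). The FDR was also above 0.05 when any 1 transgenic library was left out (0.0518 to 0.087).

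Ulk1 (chromosome 5), the kinase that starts autophagy, lay at 52.3, 54.4 and 68.6 CPM in WT, at 56.4, 49.5 and 54.6 CPM in OVE853 and at 48.5, 45.4, 47.7 and 39.2 CPM in OVE918. OVE918 was below all WT libraries. It was reduced in OVE918 (log2 fold change -0.37, SE 0.11, FDR 0.0436), a call lost in 15 of 20 alternatives. Without WT replicate 3 the log2 fold change was -0.24 (FDR 0.156), and it stayed past the threshold in 1 of the 10 fits that left out a library, that without WT replicate 1 (FDR 0.0262). Its paralog Ulk2, the scaffold Becn1 and the lipid scramblase Atg9a lay within 0.16 of 0 in both lines.

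The conjugation enzymes and the transport factors did not pass in any contrast in edgeR. Atg3, Atg5, Atg7, Atg12 and Atg16l1, which attach ATG8 proteins to lipid, had log2 fold changes of -0.31 to 0.02 in OVE853 and of -0.26 to 0.10 in OVE918. Atg7 was lowest in both (-0.31, SE 0.14, FDR 0.137, and -0.26, SE 0.13, FDR 0.177). The cataract genes Fyco1, an adaptor that moves autophagosomes along microtubules, and Epg5, a tether for fusion with lysosomes, had values of 0.05 (SE 0.15) and 0.10 (SE 0.18) in OVE853 and of 0.04 (SE 0.14) and -0.08 (SE 0.17) in OVE918. Between the lines, Atg12 passed with DESeq2 (0.23, FDR 0.0335) and with voom (FDR 0.0176), and Atg3 passed with voom (0.34, FDR 0.0482). Fyco1 and Epg5 were low in OVE918 replicate 4. Fyco1 read 42.3 CPM there against 63.9 to 66.1 CPM in the other 3 OVE918 libraries, and Epg5 read 24.2 CPM against 37.8 to 44.4 CPM.

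To place these genes in their pathway, 154 further genes in 7 lists were counted in the same fit, of which 139 were tested. The OVE853 contrast had 24 of 139 past the threshold (17.3% beside 15.8% of all genes, 9 of them elevated and 15 reduced). The OVE918 contrast had 36 (25.9% beside 19%), of which 13 were elevated and 23 reduced. Between the lines 0 of 139 passed in edgeR, with 23 (16.5%) at an unadjusted p under 0.05, beside 22.9% of all genes.

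Among 28 other lysosomal hydrolases, 3 were elevated and 1 reduced in OVE853 (14.3%, beside 15.8% of all genes). In OVE918, 4 were elevated and 5 reduced (32.1%, beside 19%). The cysteine protease Ctsc, which activates granule proteases of immune cells, lay at 37.4, 20.7 and 19.5 CPM in WT, at 65.7, 48.8 and 92.0 CPM in OVE853 and at 74.6, 51.7, 112 and 130 CPM in OVE918. The groups did not overlap WT. It was elevated in OVE853 (log2 fold change 1.42, SE 0.39, FDR 0.0384) and in OVE918 (1.83, SE 0.38, FDR 0.00838), and like Ctss it is abundant in macrophages, whose marker sums are given with Ctss. The OVE853 call was lost without WT replicate 2 or 3 (FDR 0.105 and 0.121), OVE853 replicate 1 or 3 (0.0974 and 0.132) or OVE918 replicate 3 (0.0539).

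Among 23 genes of the lysosomal membrane and of sorting, 3 were elevated and 1 reduced in OVE853 (17.4%, beside 15.8% of all genes). In OVE918, 4 were elevated and 4 reduced (34.8%, beside 19%). Igf2r, the mannose 6-phosphate receptor that carries new hydrolases to the lysosome and also binds latent TGF-β, lay at 54.2, 68.6 and 50.9 CPM in WT, at 161, 163 and 157 CPM in OVE853 and at 134, 178, 174 and 129 CPM in OVE918. It was elevated by 1.47 (SE 0.15, FDR 0.000172) and 1.41 (SE 0.15, FDR 8.5e-05) on the log2 scale, with no overlap and in all 20 alternatives. Gpnmb, a glycoprotein of melanosomes and of lipid-laden macrophages, lay at 15.2, 4.58 and 9.68 CPM in WT, at 21.3, 21.8 and 25.1 CPM in OVE853 and at 36.7, 39.7, 45.4 and 70.8 CPM in OVE918. It was elevated in OVE918 (log2 fold change 2.30, SE 0.37, FDR 0.00208), and in OVE853 the value was 1.22 (SE 0.38, FDR 0.0552). The contrast between the lines gave 1.08 (SE 0.35, FDR 0.126), so the lines were not shown to differ.

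Among 18 tested genes of the vacuolar ATPase, the pump that acidifies the lysosome, 1 was elevated and 3 reduced in OVE853 (22.2%, beside 15.8% of all genes). In OVE918, 2 were elevated and 1 reduced (16.7%, beside 19%). The elevated gene in OVE853 was Tcirg1, the a3 subunit of the membrane sector, at 8.41, 8.89 and 10.2 CPM in WT, 22.5, 19.6 and 24.4 CPM in OVE853 and 19.1, 18.7, 17.9 and 20.3 CPM in OVE918. Its log2 fold change was 1.27 (SE 0.12, FDR 8.4e-05) in OVE853 and 1.05 (SE 0.11, FDR 0.0001) in OVE918, held in all 20 alternatives. The median of the pump's genes was -0.31 in OVE853 and -0.12 in OVE918, on the other side of 0 from Tcirg1. WT replicate 3 was the highest WT library for 17 of the 18 genes, and without it the medians were -0.12 and 0.05.

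Among 13 other cargo receptors and mitophagy genes, 1 was elevated and 5 reduced in OVE853 (46.2%, beside 15.8% of all genes). In OVE918, 1 was elevated and 4 reduced (38.5%, beside 19%). The kinase Pink1, which marks damaged mitochondria, lay at 113, 154 and 236 CPM in WT, at 78.3, 83.2 and 78.7 CPM in OVE853 and at 94.1, 71.1, 80.1 and 105 CPM in OVE918. It was reduced in both lines, with log2 fold changes of -1.07 (SE 0.23, FDR 0.0131) and -0.94 (SE 0.21, FDR 0.0117). Without WT replicate 3, the highest library, they were -0.74 and -0.61. Its OVE853 call was lost without OVE853 replicate 1 or 3 (FDR 0.0548 and 0.0525). Bnip3, a mitophagy receptor of the outer mitochondrial membrane, moved the other way, at 63.6, 45.0 and 60.4 CPM in WT, 92.8, 97.9 and 80.4 CPM in OVE853 and 102, 107, 120 and 139 CPM in OVE918. Its log2 fold change was 0.68 (SE 0.15, FDR 0.0143) in OVE853, where the call was lost without OVE853 replicate 1 or 2 (FDR 0.058 each), and 1.05 (SE 0.15, FDR 0.000605) in OVE918.

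The remaining lists held no gene past a log2 fold change of 1. In mTORC1 and nutrient sensing, 2 of 19 passed in OVE853 (10.5%, beside 15.8% of all genes) and 4 of 19 in OVE918 (21.1%, beside 19%). All of them were reduced, beside 7.68% and 11% of all genes that were reduced. In the other autophagy core genes, 0 of 23 passed in OVE853 in edgeR, beside 15.8% of all genes. Of these, 5 (21.7%) had an unadjusted p under 0.05, beside 34.1% of all genes, and DESeq2 called 2, beside 22.9%. In OVE918, 3 of 23 passed (1 elevated, 2 reduced, 13% beside 19% of all genes). In fusion with lysosomes, 4 of 15 passed in each line (26.7%, beside 15.8% and 19% of all genes), 1 elevated and 3 reduced in both.

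**Figure D5:**
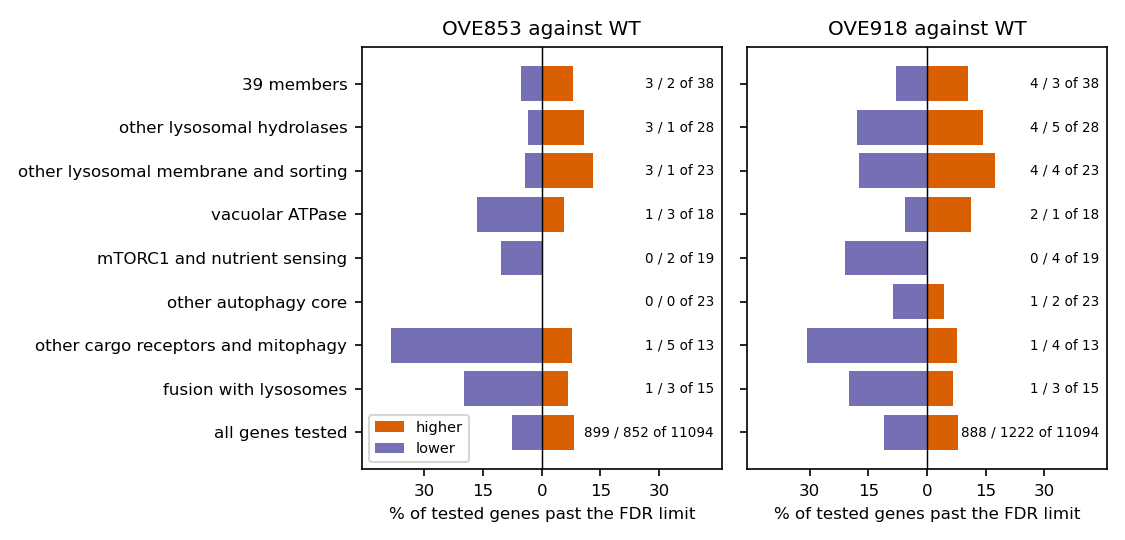
Percentage of tested genes with an FDR of at most 0.05, elevated (orange, to the right) and reduced (purple, to the left), for the 39 members, 7 further lists and all 11094 genes tested, in OVE853 and OVE918 against WT. Text gives the numbers elevated and reduced and the number tested. The members (3 and 2 of 38, and 4 and 3 of 38) lie near all genes, and the cargo receptor and mitophagy list has the largest reduced share in both lines (5 and 4 of 13).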

How the data were processed

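The authors used Cutadapt 5.2 to trim paired 150 bp reads, STAR 2.7.11b for alignment to GRCm39 and featureCounts 2.0.8, reverse-stranded, for gene counts, and deposited the raw counts without normalization. The 10 columns were matched to samples by the short names in the descriptions.

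Counts were tested with edgeR 4.0.16 under R 4.3.3, and for alternatives with DESeq2 1.42.0 and limma 3.58.1. This edgeR is earlier than the edgeR 4.6.3 of the authors. Genes with at least 2 FPKM in 5 of 10 libraries were kept, 11094 of 50763, with exon lengths of GENCODE vM39 matched by symbol for 43274 genes (22 through a synonym), in place of the RefSeq lengths of the authors. TMM factors (0.88 to 1.111), a model with 3 groups, robust quasi-likelihood fits and Benjamini-Hochberg adjustment over all genes tested followed. A gene passed at an FDR of at most 0.05 and was a DEG if its absolute log2 fold change was also at least 1. CPM are counts over TMM-scaled totals.

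The members, lists and tests were chosen with earlier results of these data known. Per-library values were given for each member past the FDR in any contrast, and further values singled out (such as Npc1, Sqstm1, Glb1) were chosen after they were seen. Of the pathway lists, genes past the DEG limits were named. P-values measure the spread between pools. Replicates differed by more than sampling noise (chi-square per degree of freedom 20 to 212), and replicate numbers did not pair samples. The steps were tested on simulated data. Alternatives comprised other scalings, filters, tools, a replicate block and the omission of each library. Of 9 marker lists, those of retinal neurons, cornea, pigmented epithelium, ciliary epithelium, Müller glia, lens fibers and macrophages are given in the text. Krt3 is not in the table and Kera was at 0 throughout. Summed markers of the other lists, over the 10 libraries, were 43.6 to 147 CPM for endothelium and 104000 to 196000 CPM for lens epithelium.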

Additional observations from a re-analysis of the deposited data

Results flagged for a closer look

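Of 45 sets of 4 OVE918 libraries, those of the members and of 6 named list genes, 4 had a library farther from the other 3 than Dixon's 95% limit allows, where chance gives about 1 in 20. OVE918 replicate 4 was high for Ctsb (447 CPM against 371 to 375) and Ctsz (147 CPM against 104 to 108) and low for Fyco1 (42.3 CPM against 63.9 to 66.1). OVE918 replicate 3 was high for Wipi1 (103 CPM against 97.3 to 97.7), a difference of a few CPM among libraries that agree closely. Lipa levels differed between the lines, with a log2 fold change of -0.40 for OVE918 against OVE853 (edgeR's quasi-likelihood test, FDR 0.0457) and no overlap of the libraries. That call was lost in 11 of 20 alternatives.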

How the results depend on the processing

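Each result was recomputed under 20 alternatives, and no call of a named gene changed sign. Members without a call could change sign in at least 1 alternative, 9 of 33 in OVE853, 14 of 31 in OVE918 and 14 of 37 between the lines, with log2 fold changes of at most 0.25 in size (Map1lc3a in OVE918, -0.25, and 0.06 without WT replicate 3). Ctss in both lines, Ctsl and Lipa in OVE918, Igf2r and Tcirg1 in both lines and Ctsc, Gpnmb, Bnip3 and Pink1 in OVE918 kept their calls in all 20. Other named calls were lost in 2 to 15 of the 20, 90 times in all, while 390 single-gene values stayed past the threshold.

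Members called in OVE853 numbered 5, and 8 with DESeq2 (22.9% of all genes called), 3 with filterByExpr (13.6%), 1 with no filter (6.36%), 13 with voom (36.7%) and 1 to 11 when 1 library was left out (1 without OVE853 replicate 1, 2 or 3, 2 without WT replicate 2 or 3, 3 without OVE918 replicate 1 or 3, 9 without WT replicate 1, 11 without OVE918 replicate 4), beside 6.58% to 23.2% of all genes. Members called in OVE918 numbered 7, and 3 when only the 2 groups were fitted (12.3% of all genes) and 3 to 12 when 1 library was left out (3 without WT replicate 2 or 3, 12 without WT replicate 1), beside 13.5% to 22.2% of all genes. Between the lines the number was 1, and 0 with upper-quartile factors, filterByExpr, no filter and the replicate block (0.811%, 0.377%, 0.402% and 0.451% of all genes), 2 with the 2 groups alone (3.44%), 3 with total-count scaling (3.23%), 4 with DESeq2 (8.63%), 10 with voom (19.5%) and 0 to 2 when 1 library was left out (0 without WT replicate 2, OVE853 replicate 1, 2 or 3 or OVE918 replicate 1, 3 or 4), beside 0.0641% to 4.77% of all genes. Total-count scaling moved the median log2 fold change of all genes between the lines from -0.02 to -0.20, and the 3 members called there (Ctsh -0.88, Ctsl -0.50, Lipa -0.58) lie below that shift.

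The share of all genes called in OVE853 was 15.8%. It was 11.4% with total-count scaling, 22.9% with DESeq2, 6.36% with no filter and 15% with the 2 groups alone. With the replicate block it was 15.7%, with voom 36.7% and over left-out libraries 6.58% to 23.2%. In the lists for OVE853, hydrolases (4) gave 7 with DESeq2, 2 with no filter, 12 with voom and 0 to 9 over left-out libraries. Membrane and sorting (4) gave 7 with DESeq2, 9 with voom and 3 to 10. The vacuolar ATPase (4) gave 2 with total-count scaling, 1 with the 2 groups alone, 2 with the replicate block and 1 to 7. The mTORC1 list (2) gave 0 with total-count scaling, 4 with DESeq2, 4 with the 2 groups alone, 5 with voom and 0 to 5. The autophagy core (0) gave 2 with DESeq2, 1 with the replicate block, 8 with voom and 0 to 3. Cargo receptors (6) gave 2 with total-count scaling, 3 with the 2 groups alone and 0 to 8, and fusion (4) gave 2 with total-count scaling and 2 to 7.

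For OVE918, the share of all genes called was 19%. It was 16.8% with total-count scaling, 24.6% with DESeq2, 8.8% with no filter and 18.4% with upper-quartile factors. With the 2 groups alone it was 12.3%, with the replicate block 14.6% and over left-out libraries 13.5% to 22.2%. The vacuolar ATPase (3) gave 5 with total-count scaling, 6 with DESeq2, 5 with no filter and 2 to 6 over left-out libraries. The mTORC1 list (4) gave 2 with upper-quartile factors, 0 with the 2 groups alone, 2 with the replicate block and 1 to 4. Cargo receptors (5) gave 3 with the 2 groups alone and 3 to 5, fusion (4) gave 2 with the 2 groups alone, 2 with the replicate block and 2 to 8, membrane and sorting (8) 5 to 9, hydrolases (9) 6 to 11 and the autophagy core (3) 2 to 6. The cause of these moves was not tested.

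The replicate numbers are shared only as numbers, since the deviations of same-numbered libraries correlated between -0.323 and 0.0997. A model with the replicate block gave 6 members called in OVE853, 6 in OVE918 and 0 between the lines (15.7%, 14.6% and 0.451% of all genes). The number of pools limits every small difference.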

Other observations

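Dnase2b, the lysosomal DNase that degrades the nuclei of lens fiber cells, did not pass the expression minimum and was singled out after its values were seen. It lay at 2.68, 1.96 and 1.44 CPM in WT, at 1.33, 34.8 and 0.987 CPM in OVE853 and at 24.0, 2.91, 22.1 and 29.4 CPM in OVE918. The summed lens fiber markers of the same libraries were 20500, 11300 and 6660 CPM in WT, 14600, 38600 and 13000 CPM in OVE853 and 44900, 17600, 31700 and 47200 CPM in OVE918. The 4 libraries with Dnase2b above 20 CPM were also the 4 with the highest fiber marker sums, and they came from both lines, whereas the other libraries of both lines lay at 0.987 to 2.91 CPM.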
